A study of Mus musculus and Homo sapiens with 4 samples.

Results

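The Isg15 conjugation system was examined in mouse embryonic fibroblasts (MEFs) through its modifier, Isg15, the enzymes Uba7, Ube2l6, Herc6 and Trim25, and the protease Usp18. These 6 genes were taken by symbol from the 23329 entries of the fibroblast libraries, and each stood on 1 entry. They were chosen because they were already known to differ between these libraries, so their values are given as a description. Cells labelled wild type (WT) and cells labelled NEAT1 KO gave 1 library each, from poly-A RNA, and the other libraries of the series are from human VCaP cells. Each culture is described as a fibroblast line derived from C57BL/6 embryos at E13.5 and used at passages 2 to 3. No treatment of the fibroblasts is given, and how the knockout allele was made is not given in the sources used here. With 1 library per genotype there is no spread between replicates, no test was possible and every difference below is between these libraries.

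ISG15 is a small protein made of a pair of ubiquitin-like domains, and it is among the transcripts most strongly induced by type I interferon. It is joined to lysines of other proteins by a cascade like that of ubiquitin: the activating enzyme UBA7 (E1) loads it, the conjugating enzyme UBE2L6 (E2) carries it, and a ligase (E3) helps to transfer it. In the mouse HERC6 is the main ligase and TRIM25 is another, while USP18 removes ISG15 from its targets and also restrains signalling at the interferon receptor subunit IFNAR2. In fibroblasts the system is known as an early part of the antiviral response.

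The conjugation of ISG15 depends on the glycine pair that ends the mature protein, which ubiquitin shares. The codons for the last 6 residues of the mature protein (Leu, Arg, Leu, Arg, Gly, Gly) are shown for Isg15 and for Rps27a, a gene of ubiquitin, because the E1 enzymes act on the end of the protein that they encode. Capitals mark the 5 of 18 bases that differ. The stretch lies in exon 2 of 2 of Isg15 (GRCm38, chr4:156199605-156199622, minus strand) and in exon 5 of 6 of Rps27a (chr11:29546384-29546401, minus strand).
Isg15: ttgCgCctGAggggtggG
Rps27a: ttgAgActTCggggtggT

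Before the values, it was asked whether the libraries bear their labels and how deep they are. Neat1 (chromosome 19, 5842302 to 5845478) had 29.5 RPKM (read numbers divided by transcript length and by library depth) in WT and 2.01 RPKM in KO. Products of RPKM and transcript length clustered at whole multiples of 1 value in each library. From this spacing the depth was estimated at 62.8 M mapped reads in WT and 59.3 M in KO, 1.06 times as many in WT. All 9 fibroblast markers were present, from 4.18 to 3151 RPKM in WT and from 13.8 to 2448 RPKM in KO. Of these, 8 were higher in KO, and 3 had log2 ratios above 1: the matrix proteoglycan genes Lum (7.98 and 33.0 RPKM) and Dcn (19.8 and 64.0 RPKM) and the growth factor receptor Pdgfra (4.18 and 13.8 RPKM). The 9 macrophage markers were all higher in KO, with a summed level of 8.59 RPKM in WT and 20.4 RPKM in KO; none was at 0. Of these, Cd68 (2.79 and 7.26 RPKM) and Cd14 (1.67 and 4.73 RPKM) had log2 ratios above 1 (0.977% of all entries), at 1.12 and 1.10. Csf1r, the receptor that marks macrophages, had 0.521 and 0.775 RPKM, and the leukocyte marker Ptprc 0.0449 and 0.0813 RPKM. The 4 epithelial markers summed to 1.05 and 0.677 RPKM, with Cdh1 listed at 0 in both libraries, and the 4 endothelial markers to 1.12 and 0.558 RPKM. Xist had 28.6 RPKM in WT and 0.04997 RPKM in KO, whereas the Y-linked gene Eif2s3y was listed at 0 in WT and had 6.30 RPKM in KO. The cultures thus differ in these sex-linked transcripts as well as in genotype, and the parts of sex, culture and genotype in the values below cannot be told apart. The part of the marker differences in those values was not tested.

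All 6 genes of the Isg15 system were higher in the NEAT1 KO library. Of all 23329 entries 7033 were, and 39.1% of those with at least 1 RPKM in both libraries. Differences are given as log2((KO + 1)/(WT + 1)), called the log2 ratio, which understates the change of genes with low RPKM, and as the plain ratio of RPKM. The median log2 ratio of the 6 genes was 1.61, against 0 over all 23329 entries and -0.059 where both libraries reached 1 RPKM (10888 entries). A log2 ratio above 2 was reached by 2 of the 6, Isg15 and Usp18, while 0.223% of all entries reached it; with an added 0.1 RPKM, or none, Uba7 passed it as well. Above 1 were 5 of the 6, all but Herc6, while 0.977% of all entries were. Below -1 or -2 were 0 of the 6, while 0.334% and 0.0171% of all entries were. The genes next to these limits were Usp18 (3.70) and Ube2l6 (1.73) around 2, and Trim25 (1.08) and Herc6 (0.79) around 1. Since the genes were picked for this contrast, nothing is read from these shares. Together the 6 genes had 48.3 RPKM in WT and 468 RPKM in KO. In cultures measured as a whole, a change in the number of expressing cells and a change in RNA per cell cannot be told apart.

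**Figure D1:**
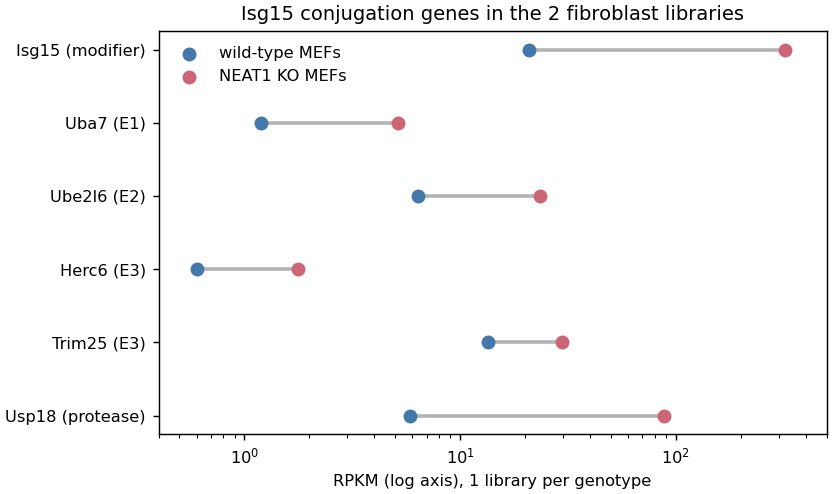
RPKM of the 6 genes on a log axis in the WT library (blue) and the NEAT1 KO library (red), 1 point per library, joined by a grey line. Each KO point lies to the right of its WT point, with the longest lines for Isg15 (20.8 to 319 RPKM) and Usp18 (5.85 to 88.0 RPKM).

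Isg15, the modifier itself (NM_015783, chromosome 4, 156199424 to 156200818), had 20.8 RPKM in WT and 319 RPKM in KO. The ratio of RPKM was 15.4 and the log2 ratio 3.88, rank 3 of all entries. By level it stood at rank 3201 in WT and at rank 127 in KO. Isg15 was thus the highest of the 6 genes in each library, by a smaller margin over Trim25 in WT and by a wide one in KO. With the depth estimated above, the entry held about 985 reads in WT and 14310 reads in KO. Counting error alone, taken on read pairs, gives a 95% interval of 14.1 to 16.9 for the ratio of RPKM (exact Clopper-Pearson). It does not cover the difference between cultures, which is unknown. The same limit holds for every counting interval below, so whether intervals overlap speaks to counting only.

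Usp18, the protease that removes ISG15 (NM_011909, chromosome 6, 121245906 to 121270917), had 5.85 RPKM in WT and 88.0 RPKM in KO. Its ratio of 15.1 (counting interval 13.45 to 16.9) was close to that of Isg15, and their counting intervals overlap. Its log2 ratio was 3.70, rank 5. The modifier therefore stood in nearly the same proportion to its protease in each library, at 3.55 times the RPKM of Usp18 in WT and 3.63 times in KO. Among the 52 entries whose symbol is Usp and a digit, which are mostly ubiquitin-specific proteases, Usp18 ranked 28 by RPKM in WT and 1 in KO.

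The enzymes that attach ISG15 differed less. Uba7, the E1 enzyme (NM_023738, chromosome 9, 107975567 to 107984056), had 1.20 RPKM in WT and 5.14 RPKM in KO, a ratio of 4.30 (counting interval 3.51 to 5.29) and a log2 ratio of 1.48. Ube2l6, the E2 enzyme (NM_019949, chromosome 2, 84798828 to 84810003), had 6.41 RPKM in WT and 23.5 RPKM in KO, a ratio of 3.67 (3.23 to 4.17) and a log2 ratio of 1.73. The counting intervals of the E1 and the E2 overlap, and neither overlaps that of Isg15. Per unit of length Ube2l6 had 5.36 times the RPKM of Uba7 in WT and 4.58 times in KO. By contrast Isg15 had 17.4 times the RPKM of Uba7 in WT and 62.1 times in KO, so that the modifier and its activating enzyme lay further apart in KO.

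The ligases had the lowest ratios of RPKM. By counting error alone, the interval of Herc6 overlaps those of Uba7 and Ube2l6, whereas that of Trim25 lies below both. Herc6, the main mouse ligase (NM_025992, chromosome 6, 57580992 to 57665136), was the lowest of the 6 genes in each library, with 0.601 RPKM in WT and 1.76 RPKM in KO. Its ratio was 2.93 (counting interval 2.29 to 3.77), from about 180 and 498 reads, and its log2 ratio was 0.79, rank 356. At these levels the added 1 RPKM weighs most: with an added 0.1 the log2 ratio was 1.41, and from the plain RPKM it was 1.55. Trim25 (NM_009546, chromosome 11, 88999403 to 89020293), which also attaches ubiquitin and acts with the RNA sensor RIG-I, had 13.49 RPKM in WT and 29.7 RPKM in KO. Its ratio of 2.20 (2.10 to 2.31) was the smallest of the 6, and its log2 ratio was 1.08. By RPKM Trim25 had 22.4 times the level of Herc6 in WT and 16.8 times in KO.

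The order of the levels changed at 1 gene. In WT it was Isg15, Trim25, Ube2l6, Usp18, Uba7 and Herc6, with Ube2l6 (6.41 RPKM) and Usp18 (5.85 RPKM) next to each other. In KO Usp18 stood second, above Trim25 and Ube2l6, and the rest kept their order. The plot of log2 ratio against level shows where the 6 genes lie among all entries.

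**Figure D2:**
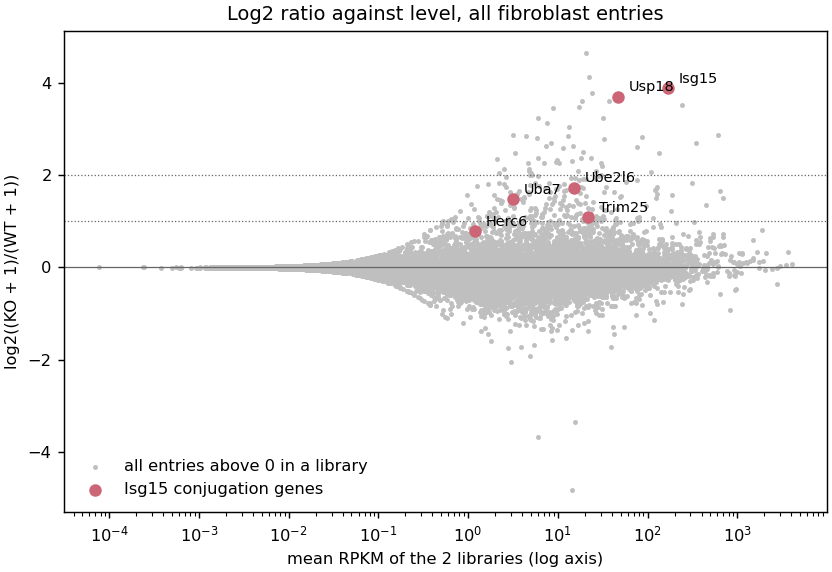
Log2 ratio of NEAT1 KO over WT (vertical axis) against the mean RPKM of the libraries (log axis) for every entry above 0 in at least 1 library, in grey, with the 6 genes in red; dotted lines mark log2 ratios of 1 and 2. Isg15 (3.88) and Usp18 (3.70) lie near the top edge, Ube2l6, Uba7 and Trim25 between the dotted lines, and Herc6 (0.79) just below them.

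Each enzyme was then set beside its own family, to give the values of relatives with other modifiers. Since these enzymes were picked for this contrast, nothing is read from their place in a family. Of the 7 entries named Uba and a digit, Uba7 was alone above a log2 ratio of 1 (0.977% of all entries). The others lay between -0.55 and 0.046. Uba1, the E1 of ubiquitin, had 135 RPKM in WT and 129 RPKM in KO. The grouping is by symbol, and not every entry in it encodes an E1. Of the 35 entries named Ube2, Ube2l6 was likewise alone above 1 (0.977% of all entries), the others ranging from -0.82 to 0.24. With 0 above 1, the other Uba and Ube2 entries were near that background share. Its close paralogue Ube2l3, an E2 of ubiquitin, had 40.7 RPKM in WT and 36.5 RPKM in KO, so that the ISG15 enzyme stood below its ubiquitin counterpart in each library, by far in WT (6.41 RPKM) and less so in KO (23.5 RPKM).

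Of the 5 Herc entries, Herc6 had the highest log2 ratio and the lowest RPKM in each library. The large ligase Herc2 had 9.68 RPKM in WT and 10.2 RPKM in KO, and the log2 ratios of the other Herc genes lay between -0.45 and 0.064. In the Usp family Usp18 was alone above 1 (0.977% of all entries). The other 51 entries lay between -0.71 and 0.16, with 0 above 1, near that background share. Usp14, a protease bound to the proteasome, was the lowest of them (18.9 and 11.1 RPKM).

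In the Trim family Trim25 was 1 of 6 entries above a log2 ratio of 1 among 66 (0.977% of all entries), and families were not tested against each other. Trim30a had the highest log2 ratio (1.76, from 2.24 to 9.99 RPKM). Trim21, the cytosolic antibody receptor, had 1.78 RPKM in WT and 6.41 RPKM in KO, and Trim12c had 2.49 and 7.46 RPKM. Trim14 had 0.0848 RPKM in WT and 1.52 RPKM in KO, and Trim34a 0.783 and 2.96 RPKM. Trim25 ranked 6 by log2 ratio but 13 of 66 by RPKM in WT and 7 in KO, above each of these 5 genes in both libraries. Trim59 was the entry below -1 (14.5 and 5.09 RPKM, log2 ratio -1.35).

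**Figure D3:**
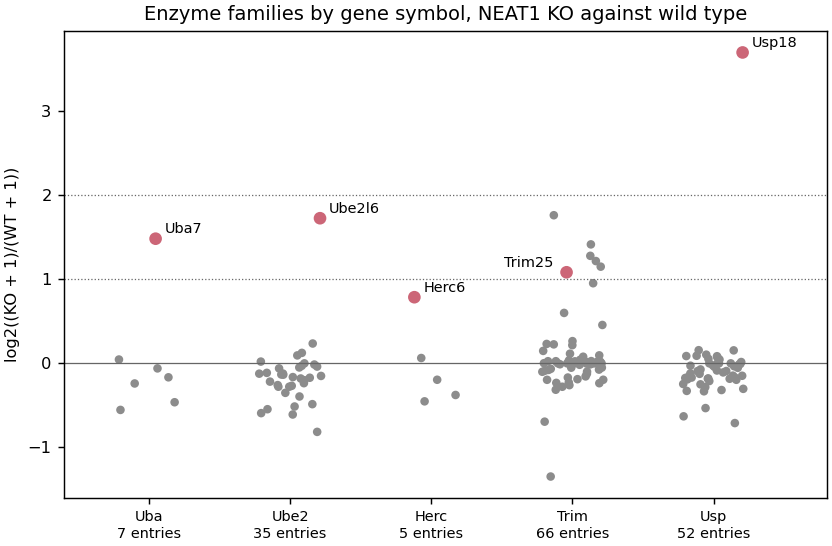
Log2 ratio of NEAT1 KO over WT for every entry of the Uba, Ube2, Herc, Trim and Usp families, grouped by gene symbol, with the Isg15 enzymes in red and the horizontal scatter within a family without meaning. Uba7, Ube2l6, Herc6 and Usp18 lie above every other entry of their families, whereas 5 Trim genes lie above Trim25.

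The genes of other ubiquitin-like modifiers were read in the same way. In the lists for ubiquitin, SUMO, NEDD8, UFM1, the autophagy modifiers and FAT10, 38 of 39 genes matched an entry and 0 of the 38 had a log2 ratio above 1 or below -1 (0.977% and 0.334% of all entries), a count near that background. They ranged from -0.58 to 0.30 with a median of -0.055, close to that of expressed entries. Of the 38, 27 were lower and 10 higher in KO. Expressed entries leaned the same way, with 39.1% of them higher in KO, so no lean of these systems is read from the count. The modifiers themselves were abundant: Ubb had 197 RPKM in WT and 242 RPKM in KO, and Nedd8 178 and 187 RPKM. In KO the RPKM of Isg15 (319) was therefore above that of Ubb, and in WT (20.8) far below it. Ubd, which encodes FAT10 and is also known as an interferon-induced modifier, was listed at 0 in both libraries. At the lower end were Nae1 and Uba3, the subunits of the NEDD8 E1, with log2 ratios of -0.58 and -0.55.

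**Figure D4:**
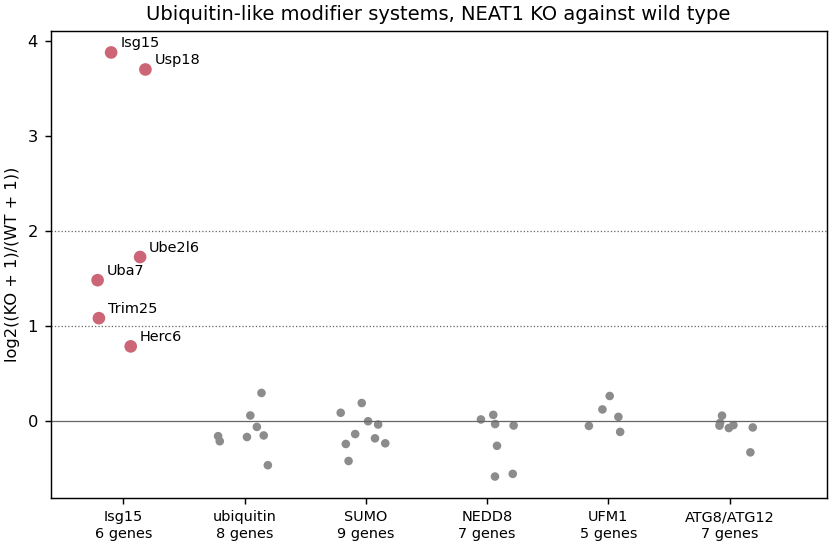
Log2 ratio of NEAT1 KO over WT for the 6 Isg15 genes (red) and for the genes of the ubiquitin, SUMO, NEDD8, UFM1 and autophagy (ATG8/ATG12) systems (grey), 1 point per gene, with dotted lines at 1 and 2. All grey points lie between -0.58 and 0.30, below Herc6 (0.79), the lowest of the Isg15 genes.

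Genes that have been linked to ISG15 but serve other pathways too were read from a further list. Of 10 such genes, 0 had a log2 ratio above 1 or below -1 (0.977% and 0.334% of all entries did), and 4 were higher in KO. Arih1, a ligase that can work with UBE2L6, had 17.3 RPKM in WT and 12.3 RPKM in KO. Usp5, a protease of free ubiquitin chains, had 66.2 and 62.0 RPKM. Itgal and Itgb2, the subunits of the leukocyte integrin LFA-1 through which free ISG15 acts on lymphocytes, were low, with 0.0756 and 0.421 RPKM in WT and 0.247 and 1.01 RPKM in KO.

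Of 18 genes whose proteins are known to be modified by ISG15, 4 had a log2 ratio above 1 and 0 below -1 (0.977% and 0.334% of all entries), with a median of -0.0021 against 0 over all entries. Among them Serpina3g, a serine protease inhibitor, had 9.47 RPKM in WT and 43.3 RPKM in KO (log2 ratio 2.08). Ddx58, the gene of RIG-I, had 8.72 and 24.6 RPKM (1.40), and Eif2ak2, the gene of the kinase PKR, 7.29 and 16.9 RPKM (1.11). Ddx58 and Eif2ak2 are themselves known interferon-response genes. The other 14 lay between -0.65 and 0.26, among them Irf3, the transcription factor downstream of RIG-I (21.5 and 21.6 RPKM).

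Genes listed with Trim25 in RNA sensing, not all of them its direct partners, gave a mixed picture. Of 7 genes 3 had a log2 ratio above 1 (0.977% of all entries): Ifih1, the gene of the sensor MDA5 (1.67 and 6.62 RPKM), Ddx58, and Zc3hav1, the gene of the zinc finger protein ZAP that needs TRIM25 (9.61 and 21.7 RPKM). Rnf135, a ligase for RIG-I, had 2.95 and 5.64 RPKM. Mavs and Tbk1, which carry the signal onward, had 14.4 and 6.72 RPKM in WT and 12.4 and 6.80 RPKM in KO.

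The chain that drives the Isg15 gene in the interferon response was read in the same way. Of its 13 listed genes 5 had a log2 ratio above 1 (0.977% of all entries), among them the transcription factors Stat2 (5.75 and 27.8 RPKM), Irf9 (10.5 and 29.5 RPKM) and Irf7 (5.24 and 58.1 RPKM) and the feedback inhibitor Socs3 (7.87 and 21.3 RPKM). Neither receptor subunit reached a log2 ratio of 1, though both were higher in KO. Ifnar1 had 15.2 RPKM in WT and 18.4 RPKM in KO (log2 ratio 0.26, rank 1560). Ifnar2, at which USP18 acts, had 11.1 and 15.6 RPKM (0.45, rank 773). The interferon transcripts in this list were at or near 0, and other interferon genes were not read. Ifnb1 was listed at 0 in WT and at 0.0758 RPKM in KO, Ifna4 at 0.0248 and 0 RPKM and Ifng at 0 in both.

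As the 6 genes differ in the same direction, their promoters were searched for the letters of interferon elements. RefSeq promoters (GRCm38.p6, 250 bases before to 50 bases after the start of transcription) matched 5 of the 6, all but Usp18. The core of the interferon-stimulated response element (ISRE), through which type I interferon acts on its target genes, was written as GAAANNGAA, or TTCNNTTTC on the other strand, and is held by 8.56% of all 32851 promoters of this length. It was found in 2 of the 5, Isg15 and Trim25. The interferon-gamma activated sequence (GAS, TTCNNNGAA, 8.30% of all promoters) and the letters TATAAA (13.6%, both strands) were found in 0 of the 5, and the GC box GGGCGG (35.7%, both strands) in Ube2l6 and Trim25.

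The Isg15 promoter is shown whole because it holds 3 overlapping matches, and those of Trim25 and Ube2l6 from 100 bases before the start to 50 bases after it, as a match near the start and as a gene without one. Capitals mark ISRE cores. They cover 21 bases in Isg15, from 78 to 58 bases before the start, and 9 bases in Trim25, from 9 bases before the start to the last base before it. The windows are chr4:156200769-156201068 on the minus strand for Isg15, chr11:88999303-88999452 on the plus strand for Trim25 and chr2:84798728-84798877 on the plus strand for Ube2l6.
Isg15: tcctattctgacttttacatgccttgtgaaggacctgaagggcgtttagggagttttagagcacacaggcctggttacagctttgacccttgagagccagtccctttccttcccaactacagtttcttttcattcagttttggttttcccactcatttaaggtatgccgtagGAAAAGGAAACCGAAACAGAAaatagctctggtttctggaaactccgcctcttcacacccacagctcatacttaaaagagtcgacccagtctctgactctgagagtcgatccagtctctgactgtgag
Trim25: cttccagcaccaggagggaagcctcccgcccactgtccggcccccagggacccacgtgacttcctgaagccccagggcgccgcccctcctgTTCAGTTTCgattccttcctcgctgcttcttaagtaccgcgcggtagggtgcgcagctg
Ube2l6: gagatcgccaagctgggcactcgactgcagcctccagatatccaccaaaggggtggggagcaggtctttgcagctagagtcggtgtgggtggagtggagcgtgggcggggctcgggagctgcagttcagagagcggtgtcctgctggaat
Ube2l6, with no ISRE core in its window, had a log2 ratio of 1.73, and Trim25 with 1 had 1.08. Uba7 and Herc6, also without a match, had log2 ratios of 1.48 and 0.79. Isg15, whose 3 matches overlap in 1 run of 21 bases, had 3.88. Usp18 (3.70) had no promoter entry, and the part of these elements in the log2 ratios was not tested. A match is a run of letters and not a site shown to be bound.

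The neighbours of the 6 genes on their chromosomes lay near 0, with 1 exception. Of the 24 entries that lie next to them, the nearest pair on each side, 23 had log2 ratios between -0.32 and 0.53. Of those, 5 were listed at 0 in both libraries. Others were below 1 RPKM in both, where the added 1 RPKM pulls the log2 ratio towards 0. Above 1 was 1 of the 24, while 0.977% of all entries were. The exception was AW011738, whose entry begins 2466 bases beyond the promoter end of Isg15, with 0.477 RPKM in WT and 3.38 RPKM in KO (log2 ratio 1.57). On the other side of Isg15, Agrn, which encodes the basement membrane proteoglycan agrin, lies 1936 bases away and had 34.6 and 49.1 RPKM (0.49). Uba7 lies 168 bases from the entry 6230427J02Rik, which had 12.1 RPKM in WT and 11.4 RPKM in KO.

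Among the entries with a mean of at least 5 RPKM, those whose log2 ratio lay closest to the median of the 6 genes (1.61) were Psmb8, Ier3, Thbs2, Parp10 and Dcn, at 1.58 to 1.64. Psmb8, a subunit of the immunoproteasome, had 8.23 RPKM in WT and 27.1 RPKM in KO. Thbs2, the gene of the matrix protein thrombospondin 2, had 94.0 and 283 RPKM, at a far higher level. This likeness rests on 2 libraries, in which a pattern is no more than a ratio, and it holds genes of the matrix beside those of the interferon response.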

How the data were processed

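Poly-A RNA of 1 wild-type and 1 NEAT1 KO fibroblast culture was sequenced from standard Illumina libraries, with strand not given in the sources used here. Each fibroblast file deposited by the authors holds an RPKM per entry (scaled to length and mapped reads). The submitters' processing notes name CASAVA 1.8 and the builds mm10 and hg18; the aligner and counter are not given in the sources used here. Starts in the files were 1 lower than in RefSeq for most entries, so 1 was added.

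A pseudocount of 1 RPKM was added to both values of every log2 ratio. The 6 genes and all gene lists were chosen with earlier results of these data known. Genes were named by list and by a log2 ratio above 1 or below -1 in a list or family, and by the 5 entries nearest the median of the 6; Herc2, Agrn, AW011738 and 6230427J02Rik were chosen after their values were seen. Depth was estimated from RPKM multiplied by the length of the longest GENCODE M21 transcript: of 943 WT and 940 KO entries worth 0.5 to 3 reads, 40.9% and 41.5% lay within 0.02 of a whole number, where 4% would if evenly spread. Reads per gene are estimates, and counting intervals use read pairs. Protein sequences were not analysed here. Some genes of the lists are counted but not reported here by name. The ratio script was tested on simulated data. Alternatives were other pseudocounts, centring, quantile normalization, a minimum of 1 RPKM and 1 entry per symbol. Python 3.11.15, numpy 2.4.6, pandas 2.3.3, scipy 1.17.1, matplotlib 3.10.9 and blastn 2.17.0 were used.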

Additional observations from a re-analysis of the deposited data

Results flagged for a closer look

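In the human VCaP libraries, which enter no comparison above, HERC5, the main ISG15 ligase of human cells, stood at 3.07 RPKM in the library labelled VCaP ERα. The library labelled VCaP held 0.304 RPKM of it. The log2 ratio was 1.64, from 1 library per condition, without a test. It drew attention because it lies outside the fibroblast comparison and exceeds the level in the library labelled VCaP. The latter goes against its label for ERG, which VCaP cells are known to express (0.0764 RPKM, against 104 RPKM in the other), so it is a doubtful control.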

How the results depend on the processing

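Each of the 11 values was recomputed under 6 alternatives, and 59 of the 66 values moved by no more than 1.5 times, with 0 reversed. Some of the 66 could not change, so the 59 are no measure of stability. Each of the 6 genes has 1 entry and at least 1 RPKM in KO. The RPKM minimum and 1 entry per symbol therefore leave its values as they are, and no pseudocount can turn the sign of a log2 ratio. All 6 genes were higher in KO, and 2 of them were above a log2 ratio of 2, or 3 with a pseudocount of 0.1 or none, where Uba7 stood at 2.02 and 2.10. Herc6 was at 1.41 with a pseudocount of 0.1 and at 1.55 with none. The number of all entries above 2 was 52, and 118 and 290 with these settings, and above 1 it was 228, and 500 and 923; entries at 0 in a library drop out where no pseudocount is used. No paired analysis was possible because each genotype has 1 library. For the same reason no replicate could be left out. Reads could be shared with other transcripts: at 95% identity or more over at least 200 bases, Isg15 matched AC151275.1 (482 bases), Ube2l6 matched Gm17167 (508 bases) and Ift46 (260 bases), Herc6 matched the overlapping Gm45193 (688 bases) and Uba7 matched the overlapping Gm20661 (208 bases), and Usp18 is overlapped by Gm44148 on the other strand. How such reads were counted is not given in the sources used here.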

Other observations

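The human counterparts of the 6 genes did not move together in the VCaP libraries, which were made from RNA without poly-A selection and with the strand kept. ISG15 stood at 207 RPKM in the library labelled VCaP, against 16.5 RPKM in that labelled VCaP ERα (log2 ratio -3.57). TRIM25 was also lower in the latter, with 39.6 and 3.97 RPKM (log2 ratio -3.03). The other genes had low values: USP18 had 1.25 and 1.64 RPKM, UBA7 0.0419 and 0.888 RPKM, UBE2L6 1.67 and 2.73 RPKM, and HERC6 1.73 and 2.58 RPKM. ISG15 thus stood above USP18 in each of these libraries, as Isg15 stood above Usp18 in each fibroblast library. ISG15 was lower and USP18 higher in the library labelled VCaP ERα, so their proportion was not nearly constant as in the fibroblasts. ERG, which VCaP cells are known to express from a gene fusion, stood at 104 RPKM in the library labelled VCaP ERα but at 0.0764 RPKM in the library labelled VCaP, so the latter goes against its label for this gene and the human values are given with that limit.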
